A study of Bos taurus with 7 samples.

Results

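Among the RNA fragments of 11 to 15 nt in commercial cow's milk (Bos taurus), 69 sequences were present in every milk library and at a much lower level, or at no read, in every milk fraction. They were chosen by their reads per 1000000 reads of the 8 to 15 nt window (RPM). A sequence needed at least 5 RPM in each of the 3 milk libraries, and its lowest milk value had to be at least 4 times its highest value in any of the 4 fractions. Of 229971 distinct sequences in all libraries, 1333 had the length and the milk level, and 69 of these (5.18%) had the ratio. Because the rule selected on milk against fractions, that contrast is given as a description and without a test. The mirror rule, with at least 5 RPM in each fraction and the lowest fraction at least 4 times the highest milk value, chose 58 of 713 sequences (8.13%).

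The fractions are titled MP 12k, 35k, 70k and 100k and had 1 library each, and neither MP nor k is explained in the labels. They are set against the unfractionated product, sequenced as milk 1, 2 and 3. All 7 libraries came from total RNA of 1 commercial brand of Holstein milk, sold pasteurized, homogenized, skimmed and filtered, and the labels name no separate cows, cartons or preparation days. The spread of the milk libraries may therefore be technical, and fractionation cannot be told apart from any batch it shared.

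The totals of the 8 to 15 nt window were 2309731, 2560280, 1817538 and 1938689 reads in 12k, 35k, 70k and 100k, and 1658606, 3070812 and 4572650 reads in milk 1, 2 and 3. These are totals of the window, not of whole libraries. With no read counted, up to 3 could have been missed, a limit of 1.30, 1.17, 1.65 and 1.55 RPM in 12k, 35k, 70k and 100k and of 0.656 to 1.81 RPM in milk. The reads had no molecular identifiers, so these limits and the intervals below cover counting error only. The size of the set depended on single libraries. The rule chose 135 sequences without 12k, 143 without 35k, 77 without 70k and 78 without 100k. It chose 327 sequences without milk 1, 142 without milk 2 and 260 without milk 3. All 69 sequences were among those chosen in each of these 7 cases, which follows from the rule, since each left-out library removes a condition.

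Ribosomal RNAs (rRNAs) form the core of the ribosome, 28S in the large and 18S in the small subunit. Transfer RNAs (tRNAs) carry amino acids to it. A tRNA folds into a cloverleaf in which its 5′ and 3′ ends pair in the acceptor stem, and the amino acid is attached to the terminal CCA, which an enzyme adds after transcription. Both RNAs are abundant in all cells, and their fragments are common in body fluids, where RNA is carried in vesicles, in particles and by proteins. Names below were given from general knowledge of mammalian RNAs and were not matched to a bovine reference. The letters are the same in many mammals, and so short a sequence can fit more than one RNA.

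Of the 69 sequences, 23 were named as tRNA pieces and 9 as rRNA pieces, and 37 were not named. The tRNA pieces came from 13 kinds of tRNA counted by amino acid, with the initiator form of methionine tRNA as its own kind. The following sequences are shown because they carry most of the reads that could be named or show how the scarce forms differ from their relatives. They are written 5′ to 3′ as DNA letters, as the files list them.

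For 28S rRNA, the first 3 forms share their start and the capitals mark the 3′ bases by which the first and second are longer than the third, which was not among the 69. Capitals in the next pair mark the bases that only one of them has, again a member and a relative that was not.
28S member of 15 nt: gggaacgtgagctGG
28S member of 14 nt: gggaacgtgagctG
28S relative of 13 nt: gggaacgtgagct
28S upstream-starting member: AGcaggacggtggc
28S leading relative: caggacggtggcCA

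For 18S rRNA, all 4 members are shown, in lower case throughout.
18S member of 11 nt: ggtcggcgtcc
18S member of 13 nt: gttggtggagcga
18S member of 14 nt: aacaggtctgtgat
18S member of 11 nt, the rarest: gagagggagcc

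For the 5′ end of serine tRNA, the leading form is shown in lower case, and the capital in each member marks the substituted base. The added G at the start of the last form is in lower case.
Serine leading form: gacgaggtggc
Serine G6A: gacgaAgtggc
Serine G6T: gacgaTgtggc
Serine G1T: Tacgaggtggc
Serine G9T: gacgaggtTgc
Serine G6A with a leading G: ggacgaAgtggc

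For the 3′ ends of tRNAs, capitals mark the bases of the CCA tail that a member still holds.
Valine, 15 nt: cgggcggaaacaCCA
Valine, 13 nt: gggcggaaacaCC
Tyrosine, 12 nt: ctcgaaggaCCA
Tyrosine, 11 nt: ctcgaaggaCC
Isoleucine: cgtacgggccaC
Proline: ggacgagcccC
Arginine: cttcgtggttgC
Phenylalanine, 13 nt: cgggtttcggcaC
Histidine: gagtcacggca

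Summed over the 69 sequences, the level was 29.9 RPM in 12k, 48.0 in 35k, 39.1 in 70k and 21.7 in 100k, against 1115, 1985 and 1559 RPM in milk 1, 2 and 3. The exact 95% intervals were 23.2 to 37.8 RPM in 12k, 39.9 to 57.3 in 35k, 30.5 to 49.3 in 70k and 15.6 to 29.3 in 100k. In milk the mean was 1553 ± 435 RPM (SD, n = 3), or 0.155% of the reads of the window. The sequences thus took 305 reads in the fractions together and 15073 in milk. Over the other 1264 sequences of like length and milk level, the sum was 749128 to 837433 RPM in the fractions and 867530 ± 25178 RPM in milk (SD, n = 3). The median of these 1264 sequences was 14.7, 20.3, 7.43 and 4.64 RPM in 12k, 35k, 70k and 100k. In milk 1, 2 and 3 it was 23.5, 27.03 and 20.8 RPM. The typical other sequence was thus also lower in the fractions, clearly in 70k and 100k, while 35k was close to milk 3.

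The word lost would describe only some of them. Of the 69 sequences, 21 had no read in any fraction, 26 had none in 3 fractions, 13 in 2 and 6 in 1, and 3 had reads in all 4. The 4 fractions together held 8626238 reads, so a count of 0 in all of them allowed up to 0.348 RPM. No fraction held more than 3 reads of 57 of the sequences. The highest level in any fraction was 9.09 RPM, for the 28S member of 15 nt in 12k. Where a sequence had reads in the fractions, its highest level was in 70k for 17 sequences, in 35k for 12, in 100k for 11 and in 12k for 8. A single read was 0.550 RPM in 70k, the fraction with the fewest reads, against 0.391 RPM in 35k and 0.516 in 100k. Equal small counts thus placed a sequence in 70k, and this order is not read as a difference between fractions.

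The milk levels were themselves low for most of the set. The mean over the milk libraries was 255 RPM for the first sequence, 11.9 RPM for the median and 6.33 RPM for the last, and 53 of the 69 stayed under 20 RPM. Near the lower end a member rests on few reads, at the least 9 in a milk library. Raising every fraction count to at least 3 reads left 47 of the 69 sequences. Milk 1 gave the lowest of the milk values for 36 of 69 sequences (52.2%) and milk 2 the highest for 37 (53.6%). The same libraries were lowest and highest for 41.5% and 44.1% of the other 1264 sequences. The median coefficient of variation over the milk libraries was 37.2% in the 69 and 40.2% in the others.

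Nested or overlapping sequences were few. Joining sequences that were nested or overlapped by at least 9 nt gave 62 stretches, 55 of 1 sequence and 7 of 2, and none was longer than 15 nt. Joining asked for identical letters, so forms that differ at 1 base, such as those of serine tRNA below, counted as separate stretches. The 28S pair of 15 and 14 nt alone held 30.8% of their reads in milk, counted as RPM. Without that pair the sum was 15.99 to 39.1 RPM in the fractions and 1074 ± 252 RPM in milk (SD, n = 3).

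The 28S pair was the most abundant stretch. The member of 15 nt had 9.09, 1.17, 6.05 and 2.58 RPM in 12k, 35k, 70k and 100k, against 149, 362 and 255 RPM in milk 1, 2 and 3. The member of 14 nt, which lacks the last G, had 1.30, 7.81, 1.65 and 3.09 RPM in these fractions, against 145, 298 and 227 RPM in milk. In both forms every fraction lay below every milk library, as the rule required. The relative of 13 nt, 1 base shorter again, was not held to the rule. It had 23.8 RPM in 12k and 18.7 in 35k, but 2.20 in 70k and no read in 100k, against 60.3, 198 and 52.9 RPM in milk. Another relative of 13 nt starts 3 bases later and ends 1 base later than the member of 15 nt. It had 21.2, 13.3, 37.4 and 15.0 RPM in the fractions, against 20.5, 55.0 and 48.3 RPM in milk, so that both groups overlapped. Over 18 relatives of this stretch, the sum was 117, 130, 246 and 135 RPM in 12k, 35k, 70k and 100k, against 245, 470 and 235 RPM in milk. Relatives are by definition sequences that the rule did not choose, here and below, so their values stand beside those of the members as a description and support no contrast between ends.

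Another 28S member overlaps one of the leading sequences of all libraries. The upstream-starting member of 14 nt had 0.433, 0.781, 3.30 and 2.06 RPM in 12k, 35k, 70k and 100k, against 13.9, 40.1 and 39.8 RPM in milk. Its leading relative starts 2 bases later and ends 2 bases later. That form had 27363, 32961, 51461 and 19754 RPM in the same fractions, against 37937, 34844 and 28621 RPM in milk, and the groups overlapped. An intermediate of 15 nt, with the start of the member and 1 more base at its 3′ end, had 58.9, 66.4, 13.2 and 0 RPM in the fractions, against 82.6, 166 and 98.2 RPM in milk. There every fraction lay below every milk library, 12k and 35k by less than 70k and 100k. A member of 13 nt lies just downstream in the same region of 28S rRNA. It had no read in any fraction and 5.43, 10.1 and 7.87 RPM in milk.

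In 18S rRNA the most abundant member, of 11 nt, had 2.60, 8.20, 1.10 and 0 RPM in 12k, 35k, 70k and 100k, against 47.6, 102 and 50.7 RPM in milk. Its most abundant relative starts 3 bases earlier and ends 1 base earlier. That relative had 59.3, 89.4, 30.3 and 10.3 RPM in the fractions, against 116, 158 and 113 RPM in milk. This relative had a larger level in 12k and 35k than in 70k and 100k. The member of 13 nt had no read in any fraction and 7.23, 34.5 and 20.1 RPM in milk. The member of 14 nt likewise had no read in any fraction and 6.63, 21.2 and 17.1 RPM in milk. The last of the 4 members, of 11 nt, also had no read in a fraction, and its milk mean was 10.2 ± 5.23 RPM (SD, n = 3). Over 34 relatives of these members the sum was 423, 604, 204 and 116 RPM in 12k, 35k, 70k and 100k, and 726 ± 148 RPM in milk (SD, n = 3).

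Of the 23 tRNA members, 12 came from the 3′ end, 6 from the 5′ end and 5 from other parts. The 12 belong to tRNAs of 9 amino acids. Each was set against a longer or more abundant form that ends in CCA, except the valine member of 15 nt, which was its own form. For the phenylalanine pair that form had no read in milk. Of the 12, 2 reached the end of the tail, 2 ended 1 base before it and 5 ended 2 bases before it. A further 2 ended 3 bases before it and 1 ended 4 bases before it. Thus 10 of the 12 lacked at least 1 base of the CCA tail. Together they had 4.76, 5.86, 4.95 and 0.516 RPM in 12k, 35k, 70k and 100k, and 178 ± 37.1 RPM in milk (SD, n = 3). Their 79 relatives that were not members summed to 664 RPM in 12k, 1163 in 35k, 141 in 70k and 44.9 in 100k, against 1537, 2491 and 1851 RPM in milk. The relatives in 12k and 35k came much nearer to the milk level than those in 70k and 100k.

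Isoleucine tRNA had the most abundant 3′-end member apart from the arginine form. It had 0.866, 3.52, 3.30 and 0 RPM in 12k, 35k, 70k and 100k, against 19.9, 49.2 and 23.6 RPM in milk. The form with the whole tail, 2 bases longer, had 22.1, 23.8, 2.20 and 0 RPM in these fractions, against 56.7, 88.6 and 59.9 RPM in milk. The form that ends 1 base earlier than the member had 17.3, 29.7, 0 and 0 RPM in the fractions, against 23.5, 41.4 and 48.1 RPM in milk. So in 12k and 35k a shorter and a longer form stood at 17.3 to 29.7 RPM, where the member between them stood at 0.866 and 3.52 RPM. In 35k the shorter form lay inside the milk range. A rarer form that starts 1 base later than the member and ends with it had 14.8 RPM in 35k and no read in the other fractions. In milk it had 9.65, 2.28 and 7.22 RPM, so that 35k exceeded every milk library.

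The proline member had no read in any fraction and 6.63, 34.2 and 10.7 RPM in milk 1, 2 and 3. With 1 more base at its 5′ side, the same piece had 39.8, 76.2, 5.50 and 2.06 RPM in 12k, 35k, 70k and 100k, against 116, 180 and 122 RPM in milk. The longer form was thus present in every fraction, most of all in 35k, and below every milk library.

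Valine tRNA had 4 members, 2 of them a nested pair at the 3′ end. The form of 13 nt had 0, 1.56, 0 and 0 RPM in 12k, 35k, 70k and 100k, against 8.44, 17.6 and 19.0 RPM in milk. The form of 15 nt, with the whole tail, had 0, 0.391, 0 and 0 RPM in the fractions, against 9.04, 10.4 and 8.09 RPM in milk. The form of 14 nt between them, which adds 1 base at the 5′ side of the shorter one, was not a member. It had 10.4, 22.7, 0.550 and 0.516 RPM in the fractions, against 13.3, 33.5 and 31.1 RPM in milk, so that 35k lay inside the milk range. The other valine members came from the D-arm side and from the T-arm side of the molecule, and neither had a read in a fraction. Their milk means were 12.96 ± 5.98 and 6.33 ± 1.01 RPM (SD, n = 3).

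The tyrosine pair was steady across milk. The form of 12 nt with the whole tail had 0, 0.391, 0 and 0 RPM in 12k, 35k, 70k and 100k, and 9.91 ± 1.04 RPM in milk (SD, n = 3). The form 1 base shorter had 0.433, 0, 0 and 0 RPM in the fractions, and 9.70 ± 2.00 RPM in milk (SD, n = 3). A relative that starts 3 bases earlier and ends with the shorter form had 26.8 RPM in 12k, 10.5 in 35k, 1.10 in 70k and 0 in 100k, against 35.6, 68.1 and 60.4 RPM in milk. The phenylalanine pair, cut 2 and 3 bases before the end of the tail, summed to at most 0.550 RPM in a fraction and to 23.9 ± 15.1 RPM in milk (SD, n = 3). The form with the whole tail went the other way, with 9.96, 6.25, 0 and 1.03 RPM in 12k, 35k, 70k and 100k and no read in milk. Another 5 relatives of the pair summed to 17.8, 18.4, 2.75 and 0 RPM in the fractions, against 27.7, 57.3 and 51.6 RPM in milk.

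The arginine member had 2.60, 0, 0 and 0 RPM in 12k, 35k, 70k and 100k, against 25.9, 26.1 and 40.9 RPM in milk. A sequence with another base at position 10, counted from 1 at the 5′ end, was listed in the same files, and the member is the C10T form of it. That other form had 11.7, 64.1, 0 and 0 RPM in the fractions, against 7.23, 24.4 and 34.8 RPM in milk. The pair therefore differed in 35k, where the member had no read and the other form exceeded every milk library.

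The single 3′-end members from histidine, glutamine and glutamate tRNA were rarer. The histidine member, which ends just before the tail, had no read in any fraction and 10.5 ± 3.44 RPM in milk (SD, n = 3). The glutamine member ends 4 bases before the end and had at most 1.10 RPM in a fraction and 11.8 ± 6.41 RPM in milk (SD, n = 3). The glutamate member had at most 0.433 RPM in a fraction and 8.85 ± 1.18 RPM in milk (SD, n = 3).

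At the 5′ end of serine tRNA, 5 members had the letters of 1 abundant sequence with 1 base substituted, and 1 of them also had a leading G. The leading form of 11 nt had 432, 359, 35.2 and 22.7 RPM in 12k, 35k, 70k and 100k, against 1166, 2913 and 2932 RPM in milk. It missed the ratio of 4 because of 12k and 35k, although every fraction was below every milk library. The G6A form had 0, 7.81, 0 and 0 RPM in the fractions, against 33.2, 59.6 and 62.3 RPM in milk. The G6A form with a leading G, which is G7A by its own numbering, had no read in any fraction and 9.04, 51.5 and 27.8 RPM in milk. Its counterpart with the leading G and no substitution had 11.3, 1.17, 0.550 and 0 RPM in the fractions, against 32.6, 129 and 115 RPM in milk. Within the pair with the leading G, the substituted form was 21.7, 28.6 and 19.4% of the reads in milk 1, 2 and 3. Within the pair of 11 nt, G6A was only 2.77, 2.01 and 2.08%. Whether both substituted forms come from the same RNA was not tested.

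The share of G6A within its pair, as reads of G6A over reads of G6A and the leading form, was 0 of 997 reads in 12k and 20 of 940 (2.13%, exact 95% interval 1.30 to 3.27%) in 35k. It was 0 of 64 reads in 70k and 0 of 44 in 100k. In milk 1, 2 and 3 it was 55 of 1989 reads (2.77%), 183 of 9127 (2.01%) and 285 of 13693 (2.08%). A count of 0 allowed a share of up to 0.301% in 12k, 4.69% in 70k and 6.82% in 100k. The share in 35k was thus inside the milk range and that in 12k below it, while in 70k and 100k a share as in milk was not detectable at this depth. Over all 33 possible single substitutions, the share of substituted reads was 3.76% in 12k, 5.25% in 35k, 12.3% in 70k and 10.2% in 100k, against 9.41, 4.94 and 5.03% in milk. The exact 95% interval was 2.69 to 5.11% in 12k, 3.94 to 6.85% in 35k, 5.795 to 22.1% in 70k and 3.40 to 22.2% in 100k. In all 4 fractions the interval reached into the range of the milk libraries, although the share in 12k itself lay below every milk library. The shares in 70k and 100k rest on only 9 and 5 substituted reads, so their intervals are wide.

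The other serine members were at the lower end of the set. G1T had a milk mean of 10.7 ± 4.95 RPM, G6T of 8.17 ± 1.15 RPM and G9T of 8.15 ± 0.943 RPM (SD, n = 3 each), with at most 1.30 RPM in a fraction. In the whole set, 10 members had a more abundant partner of the same length that differed at 1 base, and in 6 of them the partner had at least 5 times the milk level. The like share among the sequences outside the set was not counted, so these counts are not read as a property of the set.

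The remaining named tRNA members were from alanine, glycine and initiator methionine tRNA. The alanine member is 1 base longer at the 5′ side than the usual 5′ end and had 0, 0, 1.10 and 0 RPM in 12k, 35k, 70k and 100k, and 8.73 ± 2.60 RPM in milk (SD, n = 3). The leading alanine form, without that base and 2 bases longer at its 3′ end, had 329, 665, 30.3 and 10.3 RPM in the fractions, against 427, 987 and 811 RPM in milk, and 35k lay inside the milk range. The glycine pair of 12 and 13 nt covers the 3′ side of the anticodon stem and the bases after it. It summed to 0, 1.17, 1.10 and 1.03 RPM in the fractions, and to 16.6 ± 4.13 RPM in milk (SD, n = 3). The initiator methionine member ends at the base before the CAT anticodon and had 0, 0.391, 2.20 and 0 RPM in the fractions, and 20.2 ± 9.86 RPM in milk (SD, n = 3). Initiator tRNA serves the start of protein synthesis, and the member covers part of its anticodon stem.

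The 37 sequences without a name are given by make-up only. They held 36.0% of the set's milk RPM, 11 of them had no read in any fraction, and 34 had at most 3 reads in every fraction. Their milk means ran between 6.67 and 54.3 RPM, and their G and C content between 28.6 and 90.9%. The most abundant, of 14 nt with 78.6% G and C, had 6.93, 2.34, 4.95 and 0 RPM in 12k, 35k, 70k and 100k, against 44.6, 82.1 and 36.1 RPM in milk. A sequence of 12 nt with 75.0% G and C had 0, 7.42, 0.550 and 0 RPM in the fractions, against 40.4, 51.1 and 36.96 RPM in milk. Its milk libraries differed by an SD of 7.39 RPM around a mean of 42.8 RPM. Another of 12 nt, with 58.3% G and C, had no read in any fraction and 8.44, 21.2 and 19.7 RPM in milk. The largest finite ratio of the lowest milk value to the highest fraction value was 42.7, for a sequence of 14 nt with 1 read each in 35k, 70k and 100k and 28.1 ± 4.00 RPM in milk (SD, n = 3). A ratio on 1 read has wide counting error.

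At the edge of the rule, the member nearest to the ratio of 4 was an unnamed sequence of 11 nt at 4.02, with 0, 0, 1.65 and 0.516 RPM in 12k, 35k, 70k and 100k, against 6.63, 17.9 and 30.2 RPM in milk. The next was an unnamed sequence of 15 nt at 4.11, with 0, 0.391, 2.20 and 0 RPM in the fractions, against 9.04, 39.1 and 54.7 RPM in milk. The nearest sequence outside was one of 15 nt at 3.84, with 0.433, 0, 1.65 and 0 RPM in the fractions, against 7.23, 13.4 and 6.34 RPM in milk. The next outside was one of 14 nt at 3.51, with 0, 0.391, 1.65 and 2.58 RPM in the fractions, against 9.04, 25.1 and 19.0 RPM in milk. The sequences on both sides of the threshold had 3 to 5 reads in their highest fraction, so that a few reads decided which side they were on.

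Across the set, 55 of the 69 members had at least 1 relative of 11 to 15 nt that was nested in them, contained them or overlapped them by at least 9 nt, was not a member and averaged at least 5 RPM in milk. In 38 of the 55 the leading relative was more abundant in milk than the member itself. The like share for sequences outside the set was not counted. Summed over relatives, the highest fraction reached or passed the lowest milk library for 26 of the 55 members and stayed below it for 29, and for 6 the summed relatives had the ratio of 4 or no read in a fraction. The 26 include relatives that had no read in the lowest milk library. Some of these had no read in any fraction either and so count among the 6 as well. The 26 therefore overstate how often fractions came up to milk. Among single sequences, the groups did not overlap, with fractions below milk, for 348 of 1333 (26.1%), a count that includes the 69 by the rule. Since relatives were left over after the members had been taken out, and sums of several sequences are less ragged than single ones, the shares are not compared further. In 27 of the 55 (49.1%) the relatives were higher in both 12k and 35k than in both 70k and 100k. The same order held for 618 of the other 1264 sequences (48.9%). Those are single sequences and may include relatives, while members of a nested pair can share 1 sum. The order is therefore not read as a property of these relatives.

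G and C content and median length were close to those of the other 1264 sequences, while the last base and the share of 11 nt forms differed more. The 69 had 61.2% G and C over their 891 bases, and the others 62.2%. Forms of 11 nt were 17 of 69 (24.6%) against 15.3% of the others, and forms of 12, 13, 14 and 15 nt were 18.8, 17.4, 18.8 and 20.3% against 22.4, 22.3, 22.2 and 17.7%. The median length was 13 nt in both. The last base was C in 40 of 69 (57.97%) and in 34.4% of the others, and G in 15.9% and 33.2%. The first base was G in 39.1% and 35.3%, C in 31.9% and 26.5%, T in 17.4% and 16.9%, and A in 11.6% and 21.4%. A 3′-terminal C was most frequent among the tRNA members, with 17 of 23 (73.9%), and was also the last base of 20 of the 37 unnamed members (54.1%) and of 3 of the 9 rRNA members. These shares are descriptions, since relatives that share an end are not independent. A whole CCA end was held by 4 of the 69 (5.797%) and by 8.86% of the others.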

How the data were processed

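Small RNA libraries of about 8 to 35 nt from 3 milk and 4 fraction samples were sequenced for 51 cycles, per the labels' protocols. The deposited files pair every listed sequence of the 8 to 15 nt window with its read count and a scaled count, per the file headers. How reads were trimmed and collapsed is not given in the sources used here. A closing total without a sequence was left out of each file. RPM was recomputed from the deposited counts as reads over the file total times 1000000. The members, names and lists were chosen with earlier results of these data known.

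Members were selected at 11 to 15 nt, 5 RPM in each milk library and a ratio of 4, and joined when nested or overlapping by 9 nt. Values given per library were those of the leading member of the 10 most abundant stretches, the 5 most abundant members without a fraction read, and the 2 sequences on each side of the ratio. Other sequences with a named parent RNA and their relatives were chosen after their values were seen. An exact match to bovine RNAs had been planned and was not made, because the reference used here holds gene names without RNA sequences. Names therefore rest on general knowledge, and sequences are printed for named members only. Milk values are means ± SD of 3 libraries, and intervals are exact binomial at 95%. The selection was tested on simulated counts with drops planted in sequences of at least 20 RPM. The simulated milk libraries differed by counting error only. That test therefore covers neither the rarer members nor the spread seen between the milk libraries. Alternatives covered thresholds, scaling (TMM of edgeR 4.0.16 in R 4.3.3), thinning, read floors, overlap and leaving out each library. Python 3.11.15, numpy 2.4.6 and scipy 1.17.1 were used.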

Additional observations from a re-analysis of the deposited data

How the results depend on the processing

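The counts of members and stretches, with their summed milk RPM, moved with the thresholds and the libraries used, and G and C content moved little. A ratio of at least 8 gave 43 sequences in 40 stretches with 1006 RPM in milk. At least 2 RPM in each milk library gave 182 sequences, 166 stretches and 2436 RPM, and at least 10 RPM gave 13 sequences, 12 stretches, 876.6 RPM and 66.5% G and C. Scaling without the 10 most abundant sequences, which held 64.2 to 75.0% of the reads in fractions and 73.1 to 79.6% in milk, gave 273 sequences, 246 stretches, 3060 RPM and 57.7% G and C. Lengths of 8 to 15 nt gave 104 sequences and 2380 RPM. Leaving out 1 library gave 77 to 327 sequences, 70 to 285 stretches, 1658 to 6276 RPM and 59.1 to 63.5% G and C. A ratio of 3, TMM factors, thinning to the smallest total and a floor of 3 reads in the fractions gave 83, 67, 66 and 47 sequences. TMM factors and thinning each kept 58 of the 69. Other overlaps left 62 stretches. The match to a reference RNA and its alternatives were not run. No paired analysis was possible because the fractions have 1 library each and the result comes from no test.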
